A study of Homo sapiens with 12 samples.

Results

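DNAJB6, lnc-USP6-2, AC009262.2, FAM157A, G2E3 and NLGN1 are 6 human transcripts with many reproducible binding sites of myc-tagged wild type QKI. They were chosen by that count in the list of the wild type libraries, which ran between 8 and 13 peaks per gene, so the counts and folds of the wild type libraries describe the choice and were not tested. The 6 are among 20882 gene names carried by clusters of the endogenous QKI libraries, and among 2257 names with at least 1 wild type reproducible peak. Their clusters made up 1256 of the 616191 clusters in the annotated endogenous libraries, 788 of 384347 in library 1 and 468 of 231844 in library 2.

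QKI (Quaking) is an RNA-binding protein of the STAR family, with a KH domain that recognises a short sequence element in RNA. Its isoform QKI-5 is nuclear and acts on pre-mRNA splicing, in large part from sites in introns. Such sites can be found by eCLIP, a crosslinking and immunoprecipitation assay: RNA joined to the protein by UV light is pulled down with it, sequenced and set against a size-matched input from the same lysate.

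The series holds 12 libraries, of which the 6 immunoprecipitation libraries were used, 2 per group. In the mutant group, cells were transiently transfected with myc-QKI-5 carrying the substitutions K120A and R124A, and anti-MYC antibody was used. In the wild type group, cells were transfected with unmutated myc-QKI-5, again with anti-MYC antibody. In the endogenous group, cells carried no transgene and anti-QKI antibody was used. Transfections used 10 µg of plasmid and 72 h of culture, and cells were crosslinked at 254 nm with 400 mJ/cm2. The labels name no removal of the cells' own QKI from the transfected cells, and the tagged groups differ from the endogenous group in antibody as well as in transfection, so the parts of these in any difference cannot be told apart. The labels call the cells HEK293xT, and their protocols 293T, an embryonic kidney line, whereas the design note of the series names differentiating human embryonic stem cells. Whether the 2 libraries per group are from separate cultures is not stated in the labels, and their spread may be technical.

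A cluster is a stretch of RNA covered by reads in 1 library, with the authors' log2 fold over input and −log10 p. A cluster is called enriched here when both values are at least 3. A reproducible peak comes from the authors' list for a pair of libraries, with 55 mutant, 3671 wild type and 12409 endogenous peaks. Enriched clusters made up 0.0405% and 0.304% of all clusters of mutant libraries 1 and 2, 2.07% and 1.89% of wild type libraries 1 and 2, and 4.22% and 5.39% of endogenous libraries 1 and 2. The deposited files of the tagged proteins list only clusters above input, so a missing cluster there is either absent or not above input. The endogenous files also list clusters at or below input, 155229 in library 1 and 33333 in library 2. Enriched shares of tagged and endogenous libraries thus have unlike bases and cannot be compared directly. Read depth per library is unknown, and RNA levels were not measured, so all values are relative to input. All coordinates are hg19, and the peaks of the 6 genes lie on the plus strand.

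No gene of the 6 had a reproducible peak in the mutant, where the whole series had only 55. Together they had 58 reproducible peaks in wild type and 90 in endogenous. Of the 58 wild type peaks, 39 had no cluster in either mutant library, beside 84.9% of all 3671 wild type peaks. Of the 90 endogenous peaks, 67 had none, beside 82.5% of all endogenous peaks. Missing mutant clusters were thus no more frequent in the 6 genes than over all peaks.

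The balance between the wild type and endogenous lists separated DNAJB6 from the others. DNAJB6 had 11 wild type peaks and 3 endogenous ones, and lnc-USP6-2 had 13 in each list. AC009262.2 had 10 wild type and 19 endogenous peaks, FAM157A 8 and 14, G2E3 8 and 18, and NLGN1 8 and 23, in the same order of groups. As log2 of wild type plus 1 over endogenous plus 1, the counts gave 1.58 for DNAJB6 and 0 for lnc-USP6-2. The ratio lay below 0 in the other 4, at −0.74 for FAM157A, −0.86 for AC009262.2, −1.08 for G2E3 and −1.42 for NLGN1. Over all 4615 genes with a peak in either list its median was −1, and 443 of them (9.60%) had more wild type than endogenous peaks. Among the 91 genes with at least 5 wild type peaks the median was −0.58, and 19 (20.9%) had more wild type than endogenous peaks.

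In all, 16 gene names had 8 or more wild type peaks, and DNAJB6 was the only 1 of the 16 (6.25%) with fewer endogenous than wild type peaks. The choice was not a cut by count alone, since 10 of the 16 names are not among the 6 genes, MICAL3 with 30 wild type peaks being the highest of them, and some, such as lnc-BMPER-2, hold the same peaks as a chosen gene. The lowest chosen genes, FAM157A, G2E3 and NLGN1, stood at 8 peaks. Below them, 13 names stood at 7 peaks, among them GPHN with 7 wild type and 25 endogenous peaks, MYCBP2 with 7 and 21, and FHL1 with 7 and 17. A surplus of wild type peaks was present there too. HBS1L had 7 wild type peaks and 1 endogenous peak, and ANKHD1 had 7 and 3, these and MICAL3 being named after their values had been seen.

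**Figure D1:**
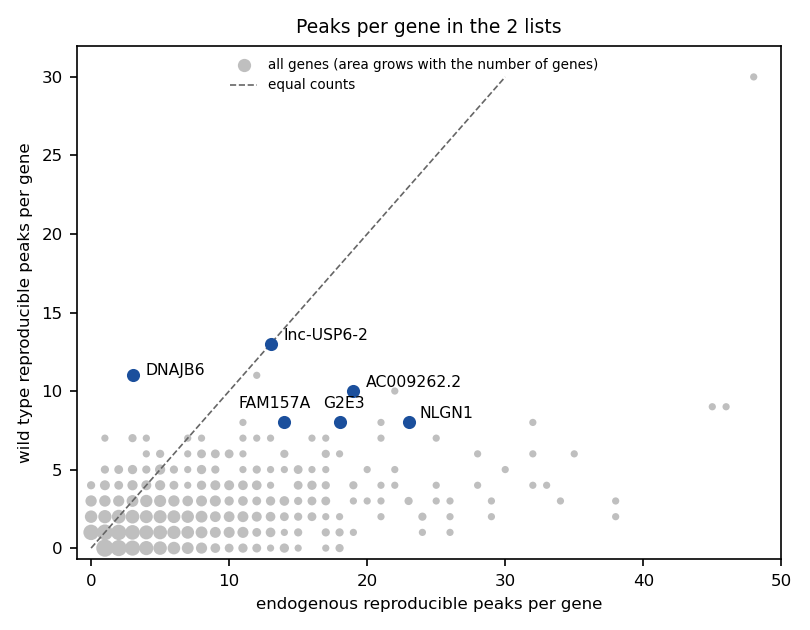
Wild type reproducible peaks per gene (y axis) against endogenous reproducible peaks per gene (x axis), both as counts. Each grey point is a pair of counts, with an area that grows with the number of genes at it, blue points are the 6 genes, and the dashed line marks equal counts. DNAJB6 (11 and 3) lies above the line, lnc-USP6-2 (13 and 13) on it and the other 4 below it.

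A reproducible peak is not always a separate site, since neighbouring peaks in the lists can adjoin with no base between them. Peaks on the same strand were therefore also joined into loci when they lay within 50 bases. The 58 wild type peaks came to 28 loci and the 90 endogenous peaks to 41. DNAJB6 then had 2 wild type loci against 3 endogenous ones, the reverse of its order in peaks. The 2 are parted by wild type peaks without a gene name, and with these they were 1 locus. For AC009262.2 the counts were 3 wild type and 2 endogenous loci, and for FAM157A 5 and 2, but these orders depended on the joining distance. With only adjoining peaks joined, AC009262.2 had 4 wild type and 10 endogenous loci and FAM157A 7 and 4, and within 200 bases they had 2 and 1, and 1 and 1. For lnc-USP6-2 there were 5 loci in each list, against 5 and 6 with only adjoining peaks joined and 2 and 3 within 200 bases. G2E3 had 6 wild type and 11 endogenous loci, and NLGN1 7 and 18, the same order as in peaks. Bases covered were 719 in wild type and 413 in endogenous for DNAJB6, and in the other 5 genes the endogenous list covered more. The difference was least in FAM157A, with 999 bases in wild type and 1248 in endogenous, and most in NLGN1, with 751 and 2682.

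**Figure D2:**
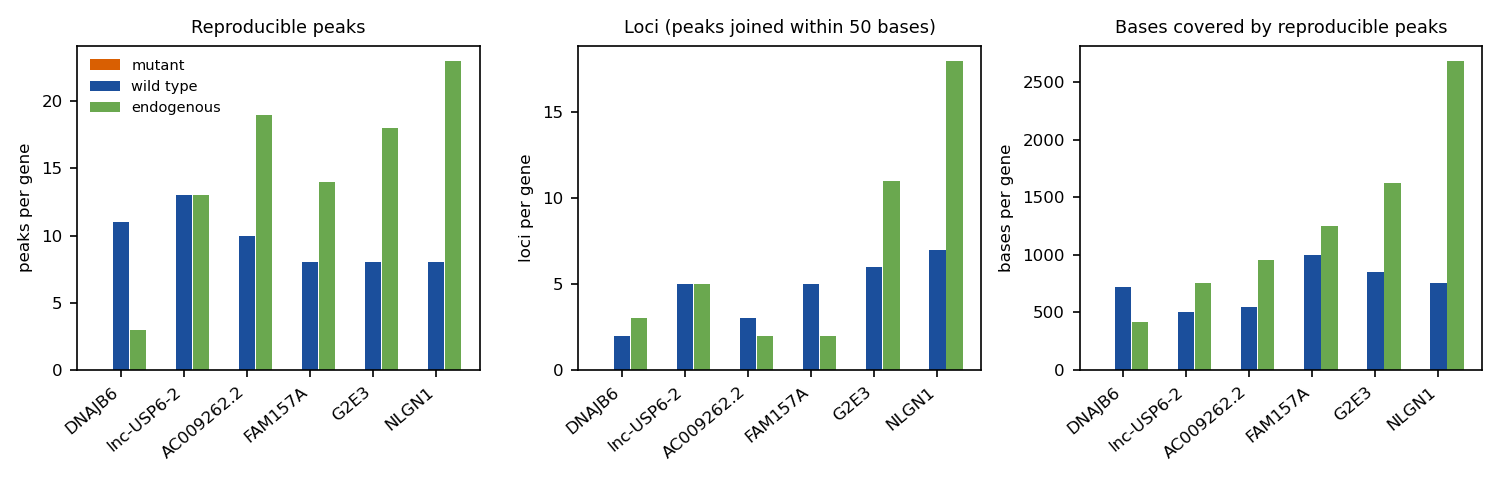
Reproducible peaks, loci and bases covered per gene (y axes, counts, counts and bases) for the 6 genes, with 1 bar per list; mutant bars are all at 0. DNAJB6 is the only gene of the 6 with more wild type than endogenous peaks and bases, but it has 2 wild type loci (1 with the peaks that carry no gene name) against 3 endogenous loci.

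DNAJB6 (ENSG00000105993.10) encodes a DNAJ co-chaperone of HSP70 that holds back the aggregation of misfolded proteins. All 11 of its wild type peaks lay within 945 bases of a distal intron at chr7:157162275-157163219, which is 1.19% of the 79480 bases over which its clusters were spread. Of the 10 steps between neighbouring peaks, 9 left no base between them. A further 3 wild type peaks filled the gap in the middle of the stretch, at chr7:157162554-157162655, chr7:157162656-157162694 and chr7:157162695-157162779. They carry no gene name because no endogenous cluster overlaps them, and are not counted in the 11. With them, 14 wild type peaks covered all 945 bases of the stretch as 1 unbroken block.

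Signal in this block was strong in both wild type libraries and not listed in the mutant. At the 11 peaks, neither mutant library listed a cluster. In wild type library 1 the log2 folds lay between 4.23 and 6.47 with a median of 4.91, and in wild type library 2 between 3.86 and 5.98 with a median of 5.14. Endogenous library 1 had a cluster at 10 of the 11, with folds between 1.51 and 4.01 and a median of 2.84. In endogenous library 2, clusters were found at 9 of the 11, with folds between 2.89 and 4.21 and a median of 3.27. The wild type and endogenous medians did not overlap, at 5.03 ± 0.16 in wild type and 3.05 ± 0.30 in endogenous (SD, n = 2 libraries each), a difference of 1.97. Over all wild type peaks the same medians were 3.92 ± 0.03 in wild type and 4.24 ± 0.04 in endogenous, a difference of −0.32. As the wild type libraries chose the gene, no test was made of the difference.

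The 3 peaks without a gene name had folds of 4.46, 4.73 and 5.70 in wild type library 1, and 5.70, 5.45 and 5.45 in wild type library 2. They were thus as strong as their named neighbours, with no cluster in the mutant or endogenous libraries. Counted by cluster, the block held none in either mutant library. The wild type libraries had 12 and 17 there, all of them enriched, and the endogenous libraries had 4 and 3, of which 1 and 2 were enriched. Clusters within the block had median widths of 82.5 and 52 bases in wild type and 107.5 and 106 bases in endogenous. The wild type libraries thus held more and narrower clusters over the same stretch.

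Endogenous QKI had 1 reproducible peak inside the block, at chr7:157162843-157162993, with a list fold of 4.08. At that peak the folds were 6.47 and 5.14 in wild type, against 4.01 and 4.21 in the endogenous libraries. Its other 2 peaks lay elsewhere in the gene. At chr7:157141440-157141565 the folds were 1.48 and 0.31 in wild type, against 3.92 and 3.77 in endogenous, with no wild type peak in the list. At chr7:157175352-157175487 they were 2.97 and 1.99 in wild type, against 2.34 and 3.73 in endogenous. Only the first of these stood apart between the groups, and in the direction opposite to the block.

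A cluster of the tagged proteins carries a gene name only where it overlaps an endogenous cluster. Tagged clusters elsewhere are left out of counts of named clusters. Among the named clusters of DNAJB6, 0 of 8 and 0 of 16 were enriched in the mutant libraries. The wild type libraries had 10 of 32 and 11 of 35, and the endogenous libraries 2 of 61 (3.28%, exact Clopper-Pearson 95% interval 0.40 to 11.3%) and 4 of 39 (10.3%, 2.87 to 24.2%). The endogenous shares were close to those of all endogenous clusters, 4.22% and 5.39%, which lie inside these intervals. Such intervals cover counting error only. The endogenous clusters include some below input, which the tagged files omit, so the wild type and endogenous shares have unlike bases. Whatever their name, 40 and 62 clusters of the mutant libraries and 47 and 62 of the wild type libraries lay within the span of the gene. Within that span but outside the block, wild type library 1 had 1 enriched cluster among 35, with a fold of 3.73. Wild type library 2 had none among 45. Mutant library 2 had 1 enriched cluster outside the block, with a fold of 3.56, which does not carry the DNAJB6 name.

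**Figure D3:**
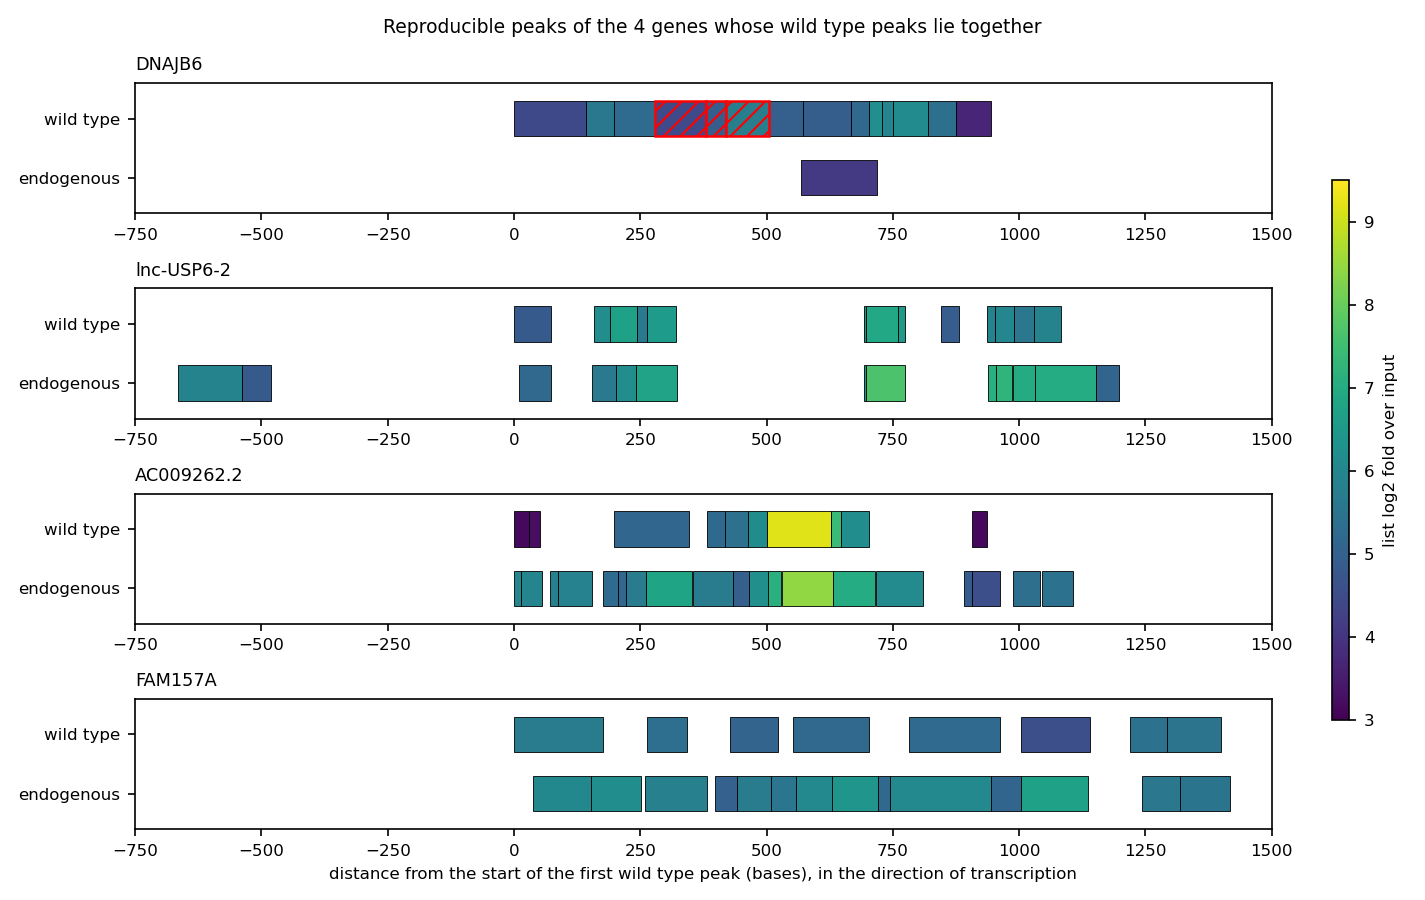
Reproducible peaks of DNAJB6, lnc-USP6-2, AC009262.2 and FAM157A, drawn to scale along the distance from the start of the first wild type peak (x axis, bases), with the wild type list above the endogenous list and colour for the list log2 fold over input. The hatched DNAJB6 boxes are the 3 wild type peaks without a gene name; with them the DNAJB6 block is unbroken over 945 bases, beside 1 endogenous peak, and the other 2 endogenous DNAJB6 peaks lie outside the window.

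The wild type peaks of the 3 long noncoding transcripts lay close together in bases, like those of DNAJB6. They spanned 5.89% of the bases over which clusters were spread in lnc-USP6-2 and 2.49% in AC009262.2. In FAM157A they spanned 97.2%, as its clusters were spread over only 1439 bases. Unlike at DNAJB6, the median folds of both endogenous libraries at the wild type peaks of these 3 transcripts lay above those of both wild type libraries. That order also held in G2E3, in NLGN1 and over all wild type peaks, and in AC009262.2 it rested on 6.15 against 6.12. lnc-USP6-2 is listed at chromosome 17, and each of its 59 endogenous clusters also lists KANSL1-AS1, MAPT-IT1 and ENSG00000261879.1, so the annotation does not give a single transcript. Its 13 wild type peaks fell within 1083 bases, and the authors' annotation put 6 in exons, 4 in a proximal intron and 3 at a 3′ splice site. The strongest wild type peak by list fold, 6.91, lay at that splice site, chr17:5144259-5144322. Its folds were 1.78 and 3.56 in mutant, then 7.82 and 6.30 in wild type, against 7.68 and 7.53 in endogenous.

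lnc-USP6-2 was the only 1 of the 6 with enriched named clusters in the mutant. At its 13 peaks, mutant library 1 had clusters at 6, with folds between 1.19 and 1.78. Mutant library 2 had clusters at 10, with folds between 3.28 and 4.19 and a −log10 p of at most 4.93. All of these folds lay below the medians of the other groups, which were 5.87 and 5.60 in wild type, against 6.78 and 6.65 in the endogenous libraries. Of the 13 peaks, 6 overlapped an enriched cluster of a mutant library, where 1.06% of all wild type peaks did. The 6 rested on 2 clusters of mutant library 2 alone, the library with 829 enriched clusters in all against 94 in mutant library 1. No mutant reproducible peak was listed there.

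Of the named clusters of lnc-USP6-2, 13 of 14 and 18 of 18 were enriched in wild type libraries 1 and 2. In endogenous libraries 1 and 2 they were 26 of 30 and 19 of 29. Of the 13 wild type peaks, 12 overlapped an endogenous reproducible peak, beside 68.2% of all wild type peaks. The exception was the peak at chr17:5144408-5144443, with folds of 4.77 and 4.99 in wild type and a cluster in endogenous library 2 only, at 4.56. In the other direction, 10 of the 13 endogenous peaks overlapped a wild type peak, beside 24.3% of all endogenous peaks. Neither share is free of the choice, here or in the other genes. The genes were picked for many wild type peaks, which favours the second share. A wild type peak counted for a gene only where an endogenous cluster overlapped it, which favours the first. The 68.2% includes the 117 wild type peaks without a gene name. The shared bases were 90.4% of the wild type bases and 59.8% of the endogenous bases. An endogenous locus of 2 peaks upstream, beginning at chr17:5142898-5143023, had folds of 6.11 and 5.42 at its first peak and no wild type cluster.

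AC009262.2 (ENSG00000236212.1) is a long noncoding transcript, and its 60 endogenous clusters also list lnc-BMPER-2 and lnc-UPK3B-5. It carried the strongest single site of the 6 genes. At chr7:34293135-34293261, in a distal intron, the fold was 1.48 in mutant library 1 with no cluster in mutant library 2. It was 8.18 and 9.30 in wild type, against 9.10 and 7.72 in endogenous. The wild type and endogenous values overlapped there. The −log10 p reached 400, the ceiling of the files, in wild type library 2.

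The other 9 peaks of AC009262.2 lay on both sides of that site within 937 bases. Over all 10, the medians were 5.34 and 6.12 in wild type, against 6.54 and 6.15 in the endogenous libraries. The lowest wild type peaks stood at the ends of the stretch. At the first, chr7:34292634-34292663, the folds were 3.22 and 3.05 in wild type, against 6.79 and 5.06 in endogenous. At the last, chr7:34293540-34293570, they were 2.91 and 3.44 in wild type, against 4.64 and 4.47 in endogenous. Both ends were thus higher in both endogenous libraries than in either wild type library, unlike the centre. All 10 wild type peaks overlapped an endogenous reproducible peak, beside 68.2% of all wild type peaks, an overlap that the naming favours. The shared bases were 99.6% of the wild type bases and 57.5% of the endogenous bases.

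FAM157A (ENSG00000236438.2), annotated here as noncoding, belongs to a family of near-identical copies, so the assignment of its reads to 1 copy is uncertain. Its 25 endogenous clusters also list lnc-LMLN-1. Its 8 wild type peaks lay within 1399 bases of introns between chr3:197895013-197895188 and chr3:197896305-197896411. It had the narrowest spread of folds. Over the 8 peaks they lay between 4.54 and 5.30 in wild type library 1, between 4.28 and 6.30 in wild type library 2, between 5.23 and 6.62 in endogenous library 1 and between 5.73 and 7.02 in endogenous library 2. Mutant library 2 had clusters at 2 of the 8, with folds of 1.69 and 2.11, and mutant library 1 had none. The medians averaged 5.05 ± 0.20 in wild type and 6.04 ± 0.18 in endogenous (SD, n = 2 each), a difference of −0.99.

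Every named cluster of FAM157A was enriched outside the mutant, 9 of 9 and 8 of 8 in wild type and 17 of 17 and 8 of 8 in the endogenous libraries. The 17 clusters of endogenous library 1 give an exact interval with a lower bound of 80.5%. All 8 wild type peaks and 13 of the 14 endogenous peaks overlapped a peak of the other list. Over all peaks the shares were 68.2% and 24.3%, and the naming and the choice of the gene favour higher ones. Among the 6 genes, FAM157A had the largest share of endogenous peaks in common, and AC009262.2 likewise had all of its wild type peaks shared. In bases, 93.2% of wild type and 74.6% of endogenous were in common in FAM157A, against 99.6% and 57.5% in AC009262.2.

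**Figure D4:**
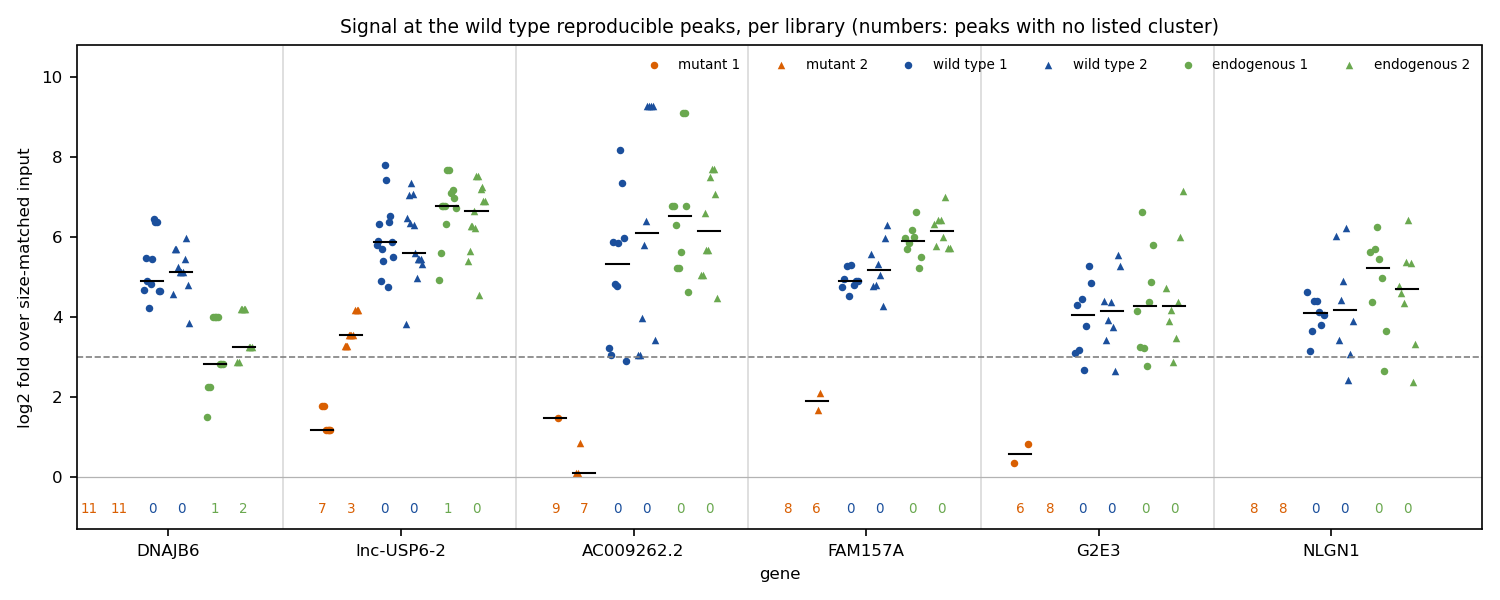
Log2 fold over size-matched input (y axis) at each wild type reproducible peak of the 6 genes (x axis), with 1 point per peak and library, spread sideways for legibility, a black line at each library's median and a dashed line at 3. Numbers at the bottom count peaks with no listed cluster; mutant clusters are missing at all 11 DNAJB6 and all 8 NLGN1 peaks, and only at DNAJB6 do the wild type medians (4.91 and 5.14) lie above both endogenous medians (2.84 and 3.27).

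G2E3 and NLGN1, both protein-coding, showed the other arrangement, with separate sites far apart along the transcript. G2E3 (ENSG00000092140.10) encodes a ubiquitin ligase with a HECT domain. Its 8 wild type peaks spanned 28.804 kb, with 6 in distal introns, 1 in a proximal intron and 1 in the 3′ untranslated region. The 3′ untranslated region held the endogenous G2E3 peak with the highest list fold, 6.70, at chr14:31086934-31087014. At the overlapping wild type peak, chr14:31086930-31087066, the fold was 0.83 in mutant library 1 with no cluster in mutant library 2. It was 4.85 and 5.29 in wild type, against 5.80 and 7.16 in endogenous. Both endogenous values exceeded both wild type values there.

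In the intron, the strongest wild type peak of G2E3 was chr14:31083072-31083172, with folds of 5.29 and 5.56 in wild type, against 4.88 and 6.01 in endogenous, which overlap. A peak at chr14:31078228-31078323 went the other way from the 3′ untranslated region. Its folds were 4.46 and 4.37 in wild type, against 3.23 and 2.89 in endogenous. Over the 8 peaks the medians were close, 4.10 ± 0.08 in wild type and 4.28 ± 0.01 in endogenous (SD, n = 2 each). The order of the groups at G2E3 thus differed from peak to peak.

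Of the 8 wild type peaks of G2E3, 7 overlapped an endogenous reproducible peak, beside 68.2% of all wild type peaks. In the other direction, 8 of its 18 endogenous peaks overlapped a wild type peak, beside 24.3% of all endogenous peaks. Of the 18 endogenous peaks, 16 had a cluster in both wild type libraries, beside 75.8% of all endogenous peaks. Enrichment in both held at 7, beside 18.7% of all endogenous peaks. These shares of endogenous peaks partly restate the choice of the gene. All 7 were among the 8 in the wild type list, so no peak of the 10 outside it was enriched in both. At chr14:31065891-31065965 and chr14:31087093-31087136, outside the list, neither wild type library had a cluster. The rest of the 10 had a cluster in both. At chr14:31064706-31064819, for example, the folds were 2.41 and 3.96 in wild type, against 5.25 and 5.15 in endogenous. The tagged protein thus had a cluster there with a lower fold in both libraries.

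NLGN1 (ENSG00000169760.13) encodes neuroligin 1, an adhesion protein of the postsynaptic membrane that binds neurexins. Its 920 endogenous clusters also list lnc-CHL1-7. Its 8 wild type peaks were spread over 818.08 kb, all in distal introns. The strongest by list fold was chr3:173123294-173123401, with folds of 4.62 and 6.02 in wild type, against 5.64 and 4.79 in endogenous. At the pair of adjoining peaks at chr3:173543768-173543819 and chr3:173543820-173543891, the folds were 4.41 and 4.92, then 4.41 and 6.23, in wild type, and 6.26 and 5.37, then 5.46 and 6.44, in endogenous. The groups overlapped at the first and the last of these 3 peaks, and at the middle one both endogenous values were the higher. Neither mutant library listed a cluster at any of the 8.

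A single wild type peak of NLGN1, chr3:173866318-173866391, had no endogenous reproducible peak. Its folds were 3.8 and 3.08 in wild type, against 2.65 and 2.37 in endogenous, with endogenous −log10 p of 1.39 and 1.70. Of the 23 endogenous peaks of NLGN1, 9 overlapped a wild type peak, beside 24.3% of all endogenous peaks, and 14 did not. The choice of a gene with many wild type peaks favours the larger share. At chr3:173542480-173542630, for example, the folds were 0.73 and 1.44 in wild type, against 4.29 and 4.59 in endogenous. Both endogenous values stood well above both wild type values at this site, but 20 of the 23 endogenous peaks still had a cluster in both wild type libraries.

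NLGN1 was also the gene with the largest number of weak clusters. Of its named clusters, 0 of 63 and 0 of 56 were enriched in the mutant libraries and 13 of 119 and 7 of 130 in wild type. In the endogenous libraries they were 28 of 591 (4.74%) and 26 of 329 (7.90%). The endogenous shares were again close to those over all clusters. G2E3 stood higher, with 23 of 55 (41.8%) and 16 of 37 (43.2%) enriched in endogenous, and exact 95% intervals of 28.7 to 55.9% and 27.1 to 60.5%. Of the named clusters of G2E3, 8 of 33 and 10 of 33 were enriched in the wild type libraries, and none of 5 in each mutant library.

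**Figure D5:**
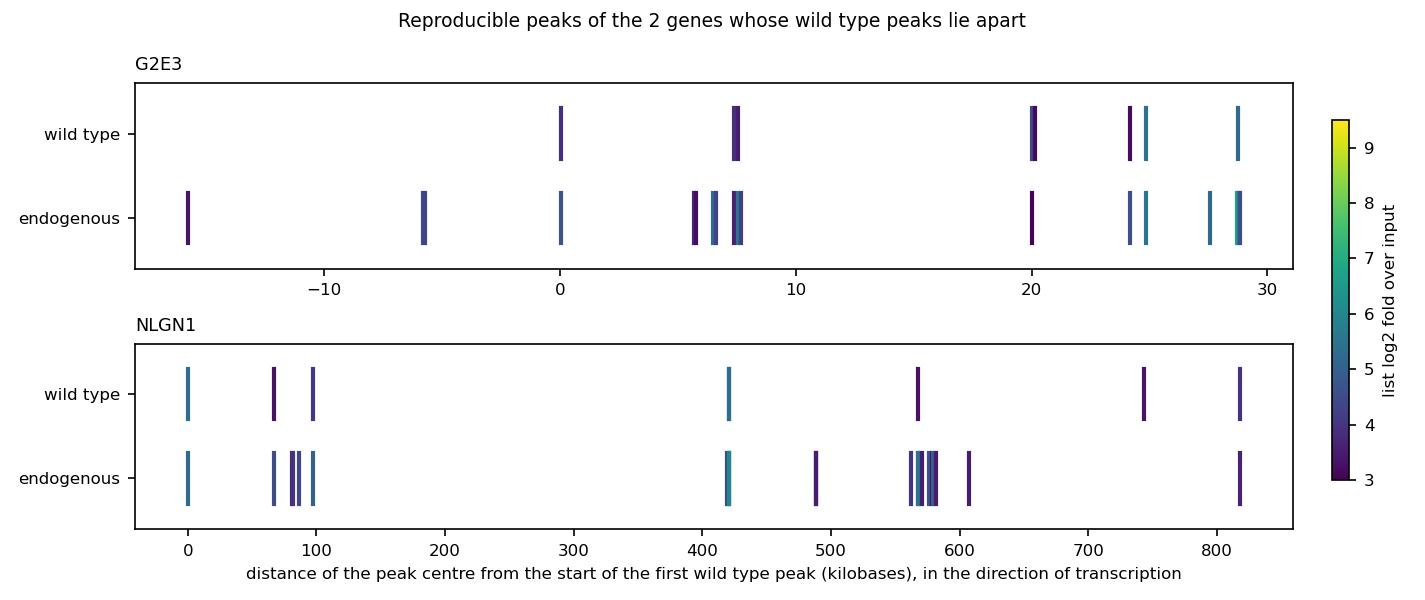
Reproducible peaks of G2E3 and NLGN1 along the distance of the peak centre from the start of the first wild type peak (x axis, kilobases), with the wild type list above the endogenous list and colour for the list log2 fold over input. Each tick marks a centre and its thickness is not the width of the peak. Wild type ticks span 28.804 kb in G2E3 and 818.08 kb in NLGN1. Of the endogenous ticks, 8 of the 18 and 9 of the 23 have an overlapping wild type peak, beside 24.3% of all endogenous peaks. These shares partly restate the choice of the genes.

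Endogenous folds were tested against input at all wild type reproducible peaks with limma. The test is not fully independent of the choice, because a peak took its gene name from an overlapping endogenous cluster, so every counted peak had a cluster in at least 1 endogenous library, and 117 wild type peaks of the series had no name. Of the 58 peaks of the 6 genes, 54 had a cluster in both endogenous libraries and could be tested, 8 of 11 in DNAJB6, 12 of 13 in lnc-USP6-2 and all in the other 4 genes. All 54 were above input by limma with adjusted p-values (Benjamini-Hochberg) up to 0.00156, but so were 3338 of the 3395 peaks tested over the series (98.3%), and the share is not a result about the 6 genes. With peaks joined into loci within 50 bases, an alternative added after seeing the data, all loci tested in the 6 genes passed, 1 in DNAJB6, 4 in lnc-USP6-2, 3 in AC009262.2, 5 in FAM157A, 6 in G2E3 and 7 in NLGN1, beside 98.2% of all loci. Fitted log2 folds lay between 2.57 and 4.11 in DNAJB6, between 5.17 and 7.61 in lnc-USP6-2, between 4.55 and 8.41 in AC009262.2, between 5.48 and 6.82 in FAM157A, between 3.06 and 6.48 in G2E3 and between 2.51 and 5.95 in NLGN1. The median over all tested peaks was 4.29. The median was 3.05 in DNAJB6, the only gene of the 6 below that. It was 6.77 in lnc-USP6-2, 6.19 in AC009262.2, 6.07 in FAM157A, 4.42 in G2E3 and 5.09 in NLGN1. Peaks without a cluster in both libraries were left out, neighbouring peaks often shared 1 endogenous cluster, and taking the cluster with the highest −log10 p favours folds above 0.

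Enrichment in both endogenous libraries was least frequent at the wild type peaks of DNAJB6. It held at 3 of 11 peaks of DNAJB6, 12 of 13 of lnc-USP6-2, 10 of 10 of AC009262.2, 8 of 8 of FAM157A, 6 of 8 of G2E3 and 7 of 8 of NLGN1, beside 62.9% of all wild type peaks. The 3 peaks of DNAJB6 shared the same endogenous cluster in each library, and its 11 peaks rested on 4 and 3 distinct endogenous clusters. The 62.9% includes the 117 wild type peaks without a gene name, which cannot count for any gene. Counting from the endogenous side, 44 of the 90 peaks were enriched in both wild type libraries, beside 18.7% of all endogenous peaks. This second share partly restates the choice of genes with strong wild type signal.

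Genes with a like balance of counts were sought among those with at least 5 wild type peaks, by the log2 ratio of the 2 lists. CCNC, with 5 wild type peaks and 1 endogenous peak, had the same ratio as DNAJB6. The nearest to lnc-USP6-2 were ZNF644 with 7 in each list and CENPE with 5 in each, and for NLGN1 they were ARID4B and ATP11A with 5 and 15 each. G2E3 was nearest to PTK2 with 7 and 16 and to lnc-UPK3B-5 with 10 and 22, a name that all 60 endogenous clusters of AC009262.2 also list. AC009262.2 was nearest to lnc-BMPER-2, which holds the same peaks, and to lnc-CRYBA4-23 with 7 and 13. FAM157A was nearest to lnc-LMLN-1, again the same peaks, and to GPATCH2 with 5 and 9.

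Peaks were also counted in genes related to the members. Over the series, 2257 of 20882 names had a wild type peak, and 4615 had a wild type or endogenous peak. Names with an endogenous peak are among these 4615, so the endogenous counts below stand beside an upper bound only. All 20882 names have an endogenous cluster, as do 14 of the 18 co-chaperone genes, 7 of the 11 neuroligin genes and all 28 ligases. The counts and medians below include DNAJB6, NLGN1 and G2E3, which were chosen for their peaks. Among 18 genes of the DNAJB co-chaperones and their HSP70 partners, 2 had a wild type peak and 5 an endogenous one, and apart from DNAJB6 the highest count was that of DNAJB11, an endoplasmic reticulum co-chaperone, with 1 wild type and 2 endogenous peaks. Among 11 neuroligins and their partners, 2 had a wild type and 4 an endogenous peak. MDGA2, a cell surface protein that binds neuroligins, had 2 wild type and 12 endogenous peaks, and NRXN3, a neurexin, had 0 and 18. Among 28 HECT ubiquitin ligases, 10 had a wild type and 16 an endogenous peak, led after G2E3 by UBE3C and ITCH with 3 in each list. FAM157B, a copy of FAM157A, had 1 wild type and 2 endogenous peaks. No gene of these lists had a mutant peak, but the whole series had only 55 mutant peaks, 17 of them without a gene name. The median log2 ratio of wild type to endogenous counts was −1 in the co-chaperones, −1.85 in the neuroligin list and −1 in the ligases. These medians rest on the 5, 4 and 17 genes with a peak, and the median over all genes with a peak was −1.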

How the data were processed

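The 6 immunoprecipitation libraries were analysed, grouped by their titles, and the inputs entered through the authors' folds. Per the submitters' processing notes, the authors used STAR, SAMtools, cutadapt and UMI-tools with build hg19; the sources used here do not name the peak caller or any version. Each deposited cluster holds the authors' log2 fold over input and their −log10 p, capped at 400. Depth is unknown. The 6 genes and all lists were chosen with earlier results of these data known.

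Peaks, and clusters of the tagged proteins, took every gene name of the endogenous cluster that overlapped them furthest on their strand (at least 1 base, bedtools 2.31.1). Those that overlapped no endogenous cluster have no name and are left out of counts by name. Each library gave a peak the value of the overlapping cluster with the highest −log10 p. Endogenous log2 folds were tested against 0 with lmFit and eBayes of limma 3.58.1 (R 4.3.3) over all 3395 wild type peaks with a cluster in both endogenous libraries, adjusted by Benjamini-Hochberg at 0.05, and the step was tested on simulated data. The unadjusted p was under 0.05 at 3339 peaks. Overlaps and counts are descriptions. Named were the 6 genes, up to 6 genes at 1 peak fewer by endogenous count, of which 3 are printed, the 2 nearest in count ratio to each member (1 of them is not reported here), and up to 3 of each gene list, beside HBS1L, ANKHD1 and MICAL3. Of the list of USP6 and lnc-USP6 transcripts, lnc-USP6-2 alone of 2 names had a cluster. A planned motif search was not run, as no hg19 sequence was used here. Coordinates are hg19 positions of the files, given counted from 1.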

Additional observations from a re-analysis of the deposited data

How the results depend on the processing

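The count of wild type peaks with endogenous signal above input by limma was 3338 of 3395 tested. With only clusters of −log10 p of at least 3 kept, it was 2554 of 2554, a filter that itself favours such a call. Under another choice of cluster, overlap, moderation or shared spread, it lay between 2984 of 3025 and 3345 of 3395. The number of peaks that could be tested thus set most of the range. The count was 2988 of 3043 when peaks were joined into loci, an alternative chosen after seeing the data. Fits with 1 endogenous library left out were also run, with the lone library assumed to vary like the wild type ones, and their counts are not given. The 58 wild type peaks became 61 with names from the span of each gene and 45 at a list fold of at least 4, where G2E3 kept 3 of 8 and NLGN1 4 of 8. The 28 loci became 33 when only adjoining peaks were joined and 20 within 200 bases. In DNAJB6 and FAM157A, 5 peaks each could be tested, and passed, when an endogenous cluster had to cover the larger part of the peak. The mean number of enriched named mutant clusters over the 6 genes was 1, all in lnc-USP6-2. A minimum log2 fold of 4 gave 0.5, a minimum −log10 p of 5 gave 0, and the mean lay between 0 and 2 when 1 mutant library was left out, as both clusters came from mutant library 2. The corresponding means of 62.5 in wild type and 104 in endogenous stayed within 1.5 times under the settings run. No paired analysis was possible because the test used the endogenous libraries alone, against 0. Unknown depth limits the reading of missing clusters.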
